A study of Mus musculus with 8 samples.

Results

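The Ly6 surface family was followed here through 6 genes, Ly6g, Ly6c2, Ly6c1, Ly6i, Ly6a and Ly6e, taken by their symbols from 25572 gene identifiers. Ly6 proteins are small, cysteine-rich molecules of the Ly6/uPAR fold that sit in the outer leaflet of the cell membrane on a glycosylphosphatidylinositol (GPI) anchor. In mouse blood and tumours they serve as landmarks of the myeloid lineages: Ly6G is the antigen by which neutrophils are recognised, while Ly6C is high on inflammatory monocytes and lower on neutrophils. Ly6A, better known as Sca-1, and Ly6E are carried by many cell types and can be induced by interferons. The 6 genes lie in one cluster on mouse chromosome 15, in the order Ly6e, Ly6i, Ly6a, Ly6c1, Ly6c2 and Ly6g (RefSeq, GRCm38.p6), with Ly6a2 between Ly6c2 and Ly6g. All 6 passed the filter on low counts and were tested.

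RNA was sequenced from neutrophils infiltrating PyMT-N tumours of C57/B6 mice, separated by flow cytometry into 4 libraries with high surface ICAM1 (CD54-positive) and 4 with low surface ICAM1 (CD54-negative). CD54 is another name for ICAM1, to which leukocytes adhere through their beta-2 integrins. The libraries were numbered 1, 2, 3 and 5 in both groups, and each was made from 150 pg of total RNA. No label used here gives the age and sex of the mice, the other sort markers, or whether each library came from its own mouse, and p-values therefore cover library-to-library spread that may be technical in part.

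Library totals ran from 15940328 to 21825096 estimated counts, and a detection floor of 3 counts corresponded to 0.121 to 0.263 CPM (counts scaled to the TMM-adjusted library size). Icam1 itself ran from 42.4 to 122 CPM in CD54-positive libraries, and from 4.31 to 18.7 CPM in CD54-negative libraries 1, 2 and 3. The library labelled CD54-negative 5 held 138 CPM of Icam1, above every CD54-positive library, so results on the Ly6 genes are given with and without it. Over all 8 libraries Icam1 did not differ between groups beyond the spread (log2 fold change 0.67 ± 0.92 SE; by edgeR, adjusted p = 0.754). The sort was on surface protein, and the mRNA is an indirect check. The neutrophil label was met unevenly: a list of 18 neutrophil markers that does not hold Ly6g summed to 1915 to 5010 CPM in CD54-positive libraries and 8160 to 39180 CPM in CD54-negative libraries. A list of 14 macrophage markers summed to 5467 to 14940 CPM in CD54-positive libraries and 741 to 1165 CPM in CD54-negative libraries. In bulk samples such as these, fewer cells of a type and less RNA per cell cannot be told apart.

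The sequences before the start sites of Ly6g and Ly6c2 are shown first because these are the genes that fell together in CD54-positive libraries, and that of Ly6c1 because its transcript is the closest relative of Ly6c2 here. They come from RefSeq (GRCm38.p6) and span 250 bases before to 50 bases from the start site, read 5′ to 3′ on the strand of the gene. The table held windows for 3 of the 6 genes. Capitals mark GAGGAAGT, a site of the type bound by ETS factors such as PU.1, and TATAAA, the letters of a TATA box.
Ly6g, chr15:75155079-75155378, plus strand: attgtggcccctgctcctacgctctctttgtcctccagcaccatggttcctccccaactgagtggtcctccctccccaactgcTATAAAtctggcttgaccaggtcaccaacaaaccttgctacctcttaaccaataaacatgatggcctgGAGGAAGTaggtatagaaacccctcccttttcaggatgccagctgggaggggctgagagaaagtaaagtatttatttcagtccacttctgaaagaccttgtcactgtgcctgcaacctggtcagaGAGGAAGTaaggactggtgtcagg
Ly6c2, chr15:75111922-75112221, minus strand: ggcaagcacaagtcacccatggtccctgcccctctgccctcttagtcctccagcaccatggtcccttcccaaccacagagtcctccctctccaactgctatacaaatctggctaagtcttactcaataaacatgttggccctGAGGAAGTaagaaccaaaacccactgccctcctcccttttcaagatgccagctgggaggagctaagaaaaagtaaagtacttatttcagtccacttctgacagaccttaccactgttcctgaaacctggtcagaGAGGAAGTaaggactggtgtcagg
Ly6c1, chr15:75048788-75049087, minus strand: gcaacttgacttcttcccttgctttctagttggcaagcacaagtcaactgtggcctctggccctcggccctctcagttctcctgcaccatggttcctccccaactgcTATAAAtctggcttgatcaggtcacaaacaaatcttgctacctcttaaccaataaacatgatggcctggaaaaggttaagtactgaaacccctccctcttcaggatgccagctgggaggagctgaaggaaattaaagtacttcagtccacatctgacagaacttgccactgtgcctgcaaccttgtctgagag

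The windows shown are close relatives. Aligned end to end, Ly6g and Ly6c2 were identical in 72.5% of 324 columns, Ly6g and Ly6c1 in 69.2% of 325, and Ly6c2 and Ly6c1 in 62.3% of 334. Each of these genes also had another window, for another start site, and identity depended on the window taken. In alignments with those it was 38.9 to 64.4% for Ly6g and Ly6c2, 42.1 to 62.5% for Ly6g and Ly6c1, and 38.2 to 50.5% for Ly6c2 and Ly6c1. Counted from the start base as 0, GAGGAAGT began at -99 and 26 in the Ly6g window and at -108 and 26 in the Ly6c2 window. It was not found whole in the Ly6c1 window shown, which ends inside a copy, after its first letters gag. A second, overlapping Ly6c1 window, for a start site further downstream, held this copy whole at -127. There it was followed by aaggactggtgt, as at 26 in the Ly6g and Ly6c2 windows. TATAAA began at -167 in the Ly6g window shown and at -143 in the Ly6c1 window shown. On either strand GAGGAAGT occurred in 3.11% of 32544 promoter windows of this length and TATAAA in 13.6%. These matches did not overlap each other in the windows shown. The core of the interferon-stimulated response element (3.45% of windows) and the STAT-type letters TTCNNNGAA (8.33%) were searched on both strands and not found in the windows of these 3 genes. The C/EBP-type letters TTGCNNAA (10.8% of windows) were found only in the other Ly6g window, for a start site upstream of the one shown. A match of letters is a description of these windows only.

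In CD54-positive libraries the Ly6 genes were made up differently. Ly6g, the neutrophil antigen, and Ly6c2, the main myeloid Ly6C gene, fell, while Ly6a and Ly6e stood at higher levels without passing the test over all genes. Of the 6 genes, 2 fell and none rose at an adjusted p under 0.05 in the edgeR quasi-likelihood test. Of all 13575 genes tested, 0.273% fell and 1.22% rose, 1.5% in all. The share that fell and its size beside the share that rose depended on the fit: 4.78% fell and 4.3% rose with DESeq2, 2.77% and 3.54% with limma-voom, 1.69% and 2.36% without the library labelled CD54-negative 5, and 1.38% and 1.59% without both libraries numbered 5. Under the other settings named for these genes, 0.236% fell and 0.921% rose with RLE scaling, 0.228% and 1.9% with library sizes only, and 0.469% and 0.958% with no filter. The groups did not overlap for Ly6g and Ly6c2, which were lower in CD54-positive libraries as were 3.89% of all genes tested, nor for Ly6a, which was higher as were 7.51%, with 11.4% in either direction. The median log2 fold change of the 6 genes was 0.45, and that of all genes tested was -0.07.

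**Figure D1:**
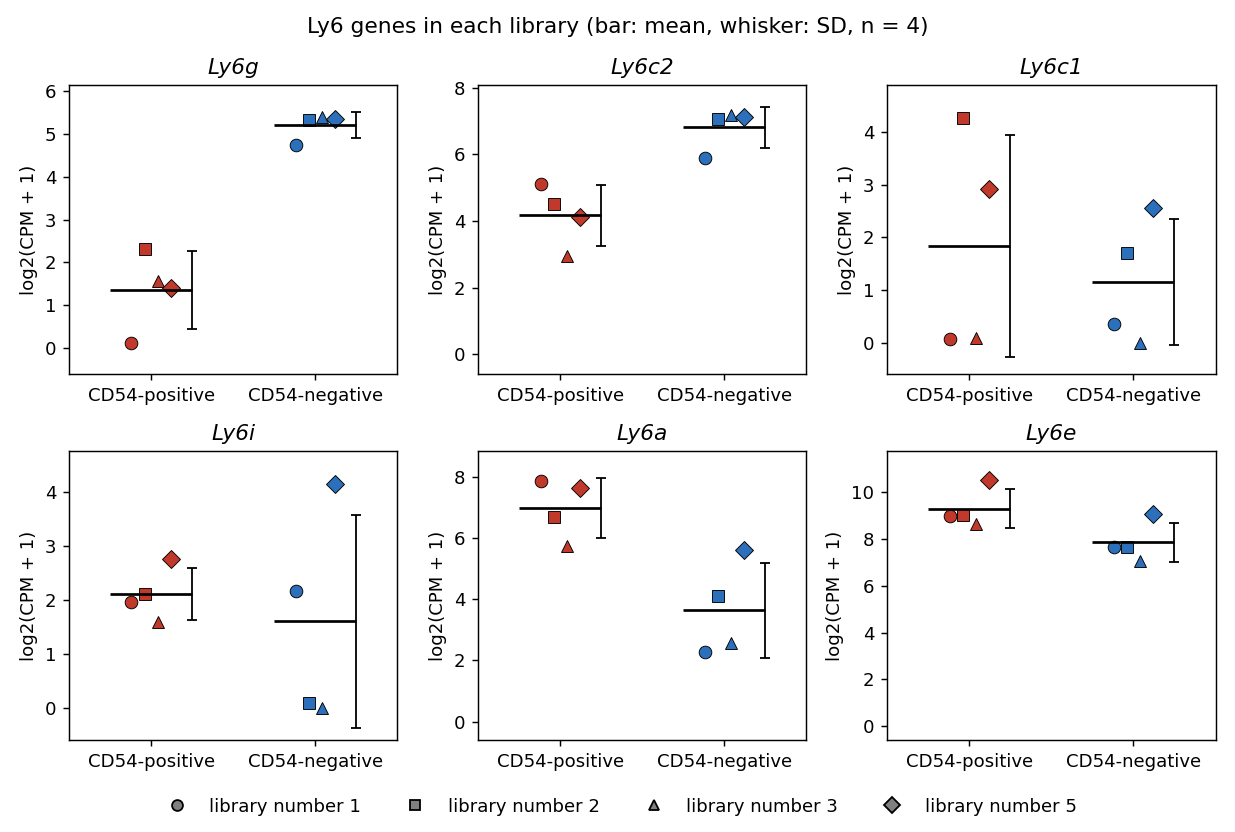
Level of each Ly6 gene as log2(CPM + 1) in CD54-positive (red, left) and CD54-negative (blue, right) libraries, with marker shape for library number, a bar for the mean and a whisker for the SD (n = 4). Ly6g and Ly6c2 are lower and Ly6a is higher in every CD54-positive library than in any CD54-negative one, while Ly6c1, Ly6i and Ly6e overlap.

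Ly6g (ENSMUSG00000022582) had 0.095, 3.99, 1.98 and 1.66 CPM in CD54-positive libraries 1, 2, 3 and 5, against 25.9, 38.8, 41.1 and 39.8 CPM in CD54-negative libraries 1, 2, 3 and 5. Every CD54-positive library was far below every CD54-negative one, and the CD54-positive library 1 held 2 reads, under the detection floor. The mean was 1.93 ± 1.60 CPM in CD54-positive and 36.4 ± 7.09 CPM in CD54-negative libraries (SD, n = 4 each), 18.8-fold lower, with a log2 fold change of -4.23 ± 0.92 (SE; by edgeR, adjusted p = 0.0486). Without the library labelled CD54-negative 5 the log2 fold change was -4.17 (edgeR adjusted p = 0.0396). The call lies close to the threshold: Ly6g stood at place 188 by p among the 203 genes called. It was lost with RLE scaling (edgeR adjusted p = 0.0502), with library sizes only (0.0573) and without any 1 of the other 7 libraries, where the adjusted p reached 0.150. Over all alternatives the adjusted p ran from 7.59e-06 with DESeq2 to 0.150.

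Ly6c2 (ENSMUSG00000022584) had 33.7, 21.6, 6.79 and 16.3 CPM in CD54-positive libraries 1, 2, 3 and 5, against 58.4, 134, 143 and 140 CPM in CD54-negative libraries 1, 2, 3 and 5. The groups were apart, with CD54-negative library 1 the nearest to the CD54-positive libraries. The mean was 19.6 ± 11.2 CPM in CD54-positive and 119 ± 40.5 CPM in CD54-negative libraries (SD, n = 4 each), with a log2 fold change of -2.60 ± 0.57 (SE; by edgeR, adjusted p = 0.0493). Without the library labelled CD54-negative 5 it was -2.51 (edgeR adjusted p = 0.0390). The call was lost with RLE scaling (edgeR adjusted p = 0.0528), when Ly6c1 and Ly6c2 were summed (0.0853) and without any 1 of the other 7 libraries, and over all alternatives the adjusted p ran from 0.000444 with DESeq2 to 0.153.

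Both genes that fell thus kept the sign of their fold change in every alternative run. Both missed the threshold with RLE scaling, and when any 1 library other than that labelled CD54-negative 5 was left out. In each of those fits fewer genes were called in all, 4 to 169 against 203. How Ly6g stood to Ly6c2 varied between CD54-positive libraries, which was not tested. Per gene length, in TPM (transcript level scaled by gene length and library), the ratio of Ly6g to Ly6c2 was 0.00225, 0.147, 0.233 and 0.0812 in CD54-positive libraries 1, 2, 3 and 5, against 0.353, 0.231, 0.229 and 0.227 in CD54-negative libraries 1, 2, 3 and 5. CD54-positive library 3 reached the ratio of the CD54-negative libraries, so the groups overlapped. The lowest ratio, in CD54-positive library 1, rests on 2 Ly6g reads, under the detection floor.

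Ly6c1 (ENSMUSG00000079018), the Ly6C gene known from endothelium and T cells, had 0.0486, 18.3, 0.0567 and 6.55 CPM in CD54-positive libraries 1, 2, 3 and 5, against 0.271, 2.27, 0 and 4.91 CPM in CD54-negative libraries 1, 2, 3 and 5. It was present in libraries 2 and 5 of either group and near or under the detection floor in libraries 1 and 3. The log2 fold change was 1.75 ± 1.82 (SE; by edgeR, adjusted p = 0.663), within the spread between libraries. It was 2.91 without the library labelled CD54-negative 5 (edgeR adjusted p = 0.468) and 0.28 without CD54-positive library 2 (edgeR adjusted p = 0.970), the highest and lowest values with 1 library left out. Of the 31-base words of the Ly6c1 transcripts (GENCODE M21), 33.1% also occurred in Ly6c2 transcripts and 15.7% in Ly6a transcripts, so the split of reads among these genes is uncertain. Ly6c1 took 0.144, 45.8, 0.83 and 28.7% of the summed Ly6c1 and Ly6c2 counts in CD54-positive libraries 1, 2, 3 and 5, against 0.462, 1.67, 0 and 3.39% in CD54-negative libraries 1, 2, 3 and 5. With both rows summed, the log2 fold change was -2.22 ± 0.58 (SE; by edgeR, adjusted p = 0.0853).

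Endothelial markers were examined beside Ly6c1. The 9 endothelial markers summed to 36.5, 51.6, 20.4 and 67.8 CPM in CD54-positive libraries 1, 2, 3 and 5, against 18.9, 12.2, 1.6 and 26.9 CPM in CD54-negative libraries 1, 2, 3 and 5, and none of the 4 tested passed the test. The 4 tested genes had fold changes of either sign. Pecam1, an adhesion molecule that leukocytes and platelets also carry, gave most of the sum in some libraries. In CD54-positive library 1 it gave 31.2 of the 36.5 CPM. The sums overlapped between groups with Pecam1 and without it. The log2 fold change of Pecam1 was 1.67, that of Cdh5, the cadherin of endothelial junctions, -1.36 and that of Vwf, von Willebrand factor, -0.07. Kdr, the main receptor for vascular endothelial growth factor (log2 fold change 4.25, adjusted p = 0.272 by edgeR), had 4.37, 27.7, 0.193 and 30.8 CPM in CD54-positive libraries 1, 2, 3 and 5, against 3.07, 0, 0 and 0.175 CPM in CD54-negative libraries 1, 2, 3 and 5. These 4 were chosen for mention after their values were seen. The endothelial markers Tek, Emcn, Cldn5, Egfl7 and Esam were each at 0 in at least 1 CD54-positive library. In no CD54-positive library was any of them above 0.869 CPM, the value of Emcn in library 3. The 14 T and NK cell markers summed to 77.4 to 397 CPM in CD54-positive libraries and 2.64 to 70.8 CPM in CD54-negative libraries. The part of these cells in the Ly6c1 values was not tested.

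Ly6i (ENSMUSG00000022586), a relative of Ly6C, was low throughout, with 2.90, 3.31, 2.03 and 5.76 CPM in CD54-positive libraries 1, 2, 3 and 5, against 3.50, 0.0596, 0 and 16.8 CPM in CD54-negative libraries 1, 2, 3 and 5. The CD54-positive libraries lay close together and the CD54-negative ones spread to either side of them. The log2 fold change of -0.54 ± 1.54 (SE; by edgeR, adjusted p = 0.893) was far smaller than its error, and without the library labelled CD54-negative 5 it was 1.54 (edgeR adjusted p = 0.636).

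Ly6a (ENSMUSG00000075602), which encodes Sca-1, a marker of blood stem cells that is also found on T cells and endothelium, had 232, 102, 52.3 and 197 CPM in CD54-positive libraries 1, 2, 3 and 5, against 3.84, 16.2, 4.93 and 48.2 CPM in CD54-negative libraries 1, 2, 3 and 5. All 4 CD54-positive libraries were above all 4 CD54-negative ones, although CD54-positive library 3 was only just above the library labelled CD54-negative 5. The mean was 146 ± 83.0 CPM in CD54-positive and 18.3 ± 20.7 CPM in CD54-negative libraries (SD, n = 4 each), and the log2 fold change of 3.0 ± 0.84 did not pass the threshold over all genes (SE; by edgeR, adjusted p = 0.109). Without the library labelled CD54-negative 5 Ly6a rose by 4.13 ± 0.74 on the log2 scale (edgeR adjusted p = 0.0199). Ly6a was also past it without both libraries numbered 5 (edgeR adjusted p = 0.0318), with library sizes only (0.0481), with no filter on low counts (0.0434), with limma-voom (adjusted p = 0.0176) and with DESeq2 (adjusted p = 0.00765). Over all alternatives the adjusted p ran from 0.00765 to 0.237.

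Ly6e (ENSMUSG00000022587), an interferon-inducible gene of many tissues, was the most abundant of the 6 per gene length in every CD54-positive library. It had 511, 525, 405 and 1476 CPM in CD54-positive libraries 1, 2, 3 and 5, against 200.3, 203, 132 and 534 CPM in CD54-negative libraries 1, 2, 3 and 5. Each CD54-positive library was above the CD54-negative library of the same number, as for 14.7% of all genes tested, but the groups overlapped, since the library labelled CD54-negative 5 was above CD54-positive libraries 1, 2 and 3. The mean was 729 ± 500 CPM in CD54-positive and 267 ± 181 CPM in CD54-negative libraries (SD, n = 4 each), and the log2 fold change of 1.45 ± 0.60 did not pass the threshold (SE; by edgeR, adjusted p = 0.246). It was 2.02 without the library labelled CD54-negative 5 (edgeR adjusted p = 0.0562). In no alternative run did Ly6e pass the threshold, with adjusted p from 0.0559 to 0.500.

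**Figure D2:**
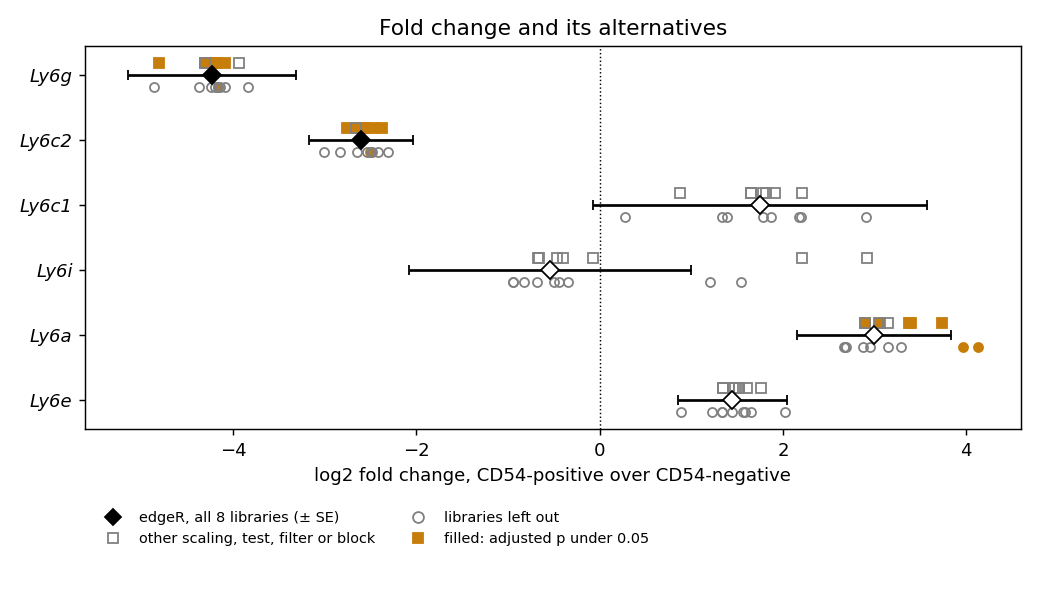
Log2 fold change of each Ly6 gene, CD54-positive over CD54-negative, with the edgeR value and its SE on all 8 libraries (diamond, filled where the adjusted p was under 0.05), other scalings, tests, filters and the replicate block (squares) and fits with libraries left out (circles). Ly6g and Ly6c2 stay below 0 and Ly6a and Ly6e above it in all of them, while Ly6i falls on both sides, and orange marks an adjusted p under 0.05.

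Levels of different genes can be set side by side only per gene length. In CD54-positive libraries the order of mean TPM was Ly6e with 1214 ± 722, Ly6a with 323 ± 152, Ly6c2 with 54.1 ± 27.2, Ly6c1 with 14.6 ± 21.0, Ly6i with 5.38 ± 2.00 and Ly6g with 4.66 ± 3.94 TPM (SD, n = 4). In CD54-negative libraries it was Ly6e with 408 ± 205, Ly6c2 with 319 ± 108, Ly6g with 78.2 ± 16.1, Ly6a with 36.3 ± 35.8, Ly6i with 6.47 ± 9.51 and Ly6c1 with 3.68 ± 4.12 TPM. The first places were firm in the CD54-positive libraries, where Ly6e was above Ly6a and Ly6a above Ly6c2 in 4 of 4 libraries. There Ly6c1, Ly6i and Ly6g changed places from library to library and did not differ beyond their spread. In CD54-negative libraries Ly6c2 was above Ly6e in 2 of 4 libraries, so these 2 did not differ beyond their spread, and Ly6g was above Ly6a in 3 of 4 libraries, the exception being the library labelled CD54-negative 5. Ly6c1 and Ly6i could not be ordered there either.

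Set against each other, Ly6a and Ly6c2 changed places. The TPM ratio of Ly6a to Ly6c2 was 5.6, 3.84, 6.28 and 9.87 in CD54-positive libraries 1, 2, 3 and 5, against 0.0536, 0.0982, 0.0280 and 0.281 in CD54-negative libraries 1, 2, 3 and 5. Ly6a was the more abundant in every CD54-positive library and Ly6c2 in every CD54-negative one. As shares of the summed TPM of the 6 genes, Ly6a took 21.0 ± 9.93% in CD54-positive and 3.67 ± 2.72% in CD54-negative libraries (SD, n = 4 each). Ly6c2 took 3.77 ± 2.25% in CD54-positive and 38.5 ± 13.9% in CD54-negative libraries, and Ly6g took 0.349 ± 0.336% in CD54-positive and 9.70 ± 2.83% in CD54-negative libraries. Ly6e took 73.6 ± 11.7% in CD54-positive and 47.1 ± 14.1% in CD54-negative libraries, and here the shares overlapped.

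**Figure D3:**
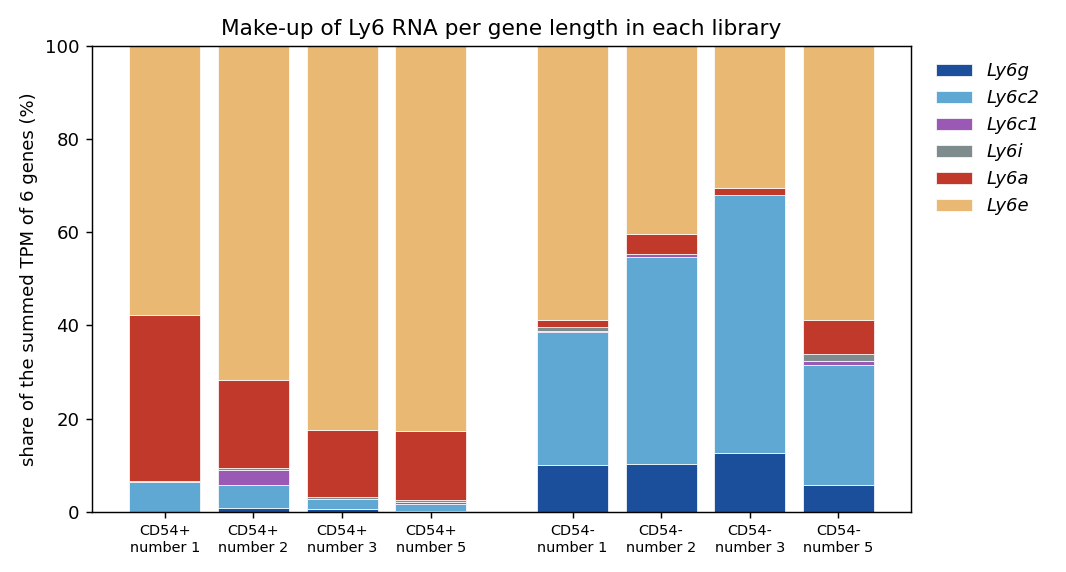
Share of each Ly6 gene in the summed TPM of the 6 genes, in percent, for each CD54-positive library (left) and CD54-negative library (right). Ly6c2 and Ly6g make up 31.5 to 67.9% of each CD54-negative bar and 1.64 to 6.36% of each CD54-positive one, where Ly6a and Ly6e take nearly all of the rest.

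Beyond these 6, the Ly6/uPAR family was read from a list of 34 other genes, of which 19 were in the table and 4 passed the filter on low counts. None of the 4 passed the test. Plaur, the receptor of urokinase, which neutrophils and macrophages carry, had 23.4, 28.6, 14.0 and 110 CPM in CD54-positive libraries 1, 2, 3 and 5, against 72.2, 58.0, 58.6 and 598 CPM in CD54-negative libraries 1, 2, 3 and 5 (log2 fold change -2.16 ± 0.92 SE; by edgeR, adjusted p = 0.265). It was lower in the CD54-positive library of each same-numbered pair, as were 12.3% of all genes tested, but both libraries numbered 5 stood far above the rest. The log2 fold change of Plaur was -0.53 without the library labelled CD54-negative 5 and -3.10 without CD54-positive library 5. Without both it was -1.50 (edgeR adjusted p = 0.126).

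Ly6d, known from early B cells and keratinised epithelium, had 44.2, 79.9, 11.7 and 1.22 CPM in CD54-positive libraries 1, 2, 3 and 5, against 0, 11.4, 0.426 and 0.439 CPM in CD54-negative libraries 1, 2, 3 and 5 (log2 fold change 3.47 ± 1.62 SE; by edgeR, adjusted p = 0.307). Without CD54-negative library 2 it was 6.90 (edgeR adjusted p = 0.106), the highest of the values with 1 library left out, of which the lowest was 2.63. The 8 B and plasma cell markers summed to 544, 2086, 275 and 663 CPM in CD54-positive libraries 1, 2, 3 and 5, against 49.9, 428, 55.5 and 149 CPM in CD54-negative libraries 1, 2, 3 and 5. Library 2 was the highest of its group for both Ly6d and these markers. CD54-positive library 5 was the lowest of its group for Ly6d, but stood above libraries 1 and 3 for these markers. Their part in the Ly6d values was not tested. Cd59a, an inhibitor of the complement attack complex, had a log2 fold change of -1.61 ± 1.24 (SE; by edgeR, adjusted p = 0.546) and Lynx1, a modulator of nicotinic receptors, -1.03 ± 1.27 (edgeR adjusted p = 0.720).

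No gene of the machinery that makes and attaches the GPI anchor passed the test. Of 27 genes on that list 24 were tested, of which 11 had positive and 13 negative values, and the median log2 fold change was -0.02, against -0.07 for all genes tested. Their summed level was 572 ± 109 CPM in CD54-positive and 561 ± 189 CPM in CD54-negative libraries (SD, n = 4 each).

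Ly6a2 (ENSMUSG00000102051), the neighbour of Ly6c2 and Ly6g, was on no list and is named after its values were seen. It had 9.44, 6.80, 3.54 and 0.111 CPM in CD54-positive libraries 1, 2, 3 and 5, against 25.5, 37.7, 46.8 and 36.7 CPM in CD54-negative libraries 1, 2, 3 and 5. The groups did not overlap, and the log2 fold change was -2.88 ± 0.94 (SE; by edgeR, adjusted p = 0.161). Lower values without overlap were found for 3.89% of all genes tested. DESeq2 called it lower, at -2.93 (adjusted p = 0.0136), as did limma-voom, at -3.31 (adjusted p = 0.0408). Of all genes tested, 4.78% fell with DESeq2 and 2.77% with limma-voom. The other 15 of 17 alternatives did not call Ly6a2, with edgeR adjusted p up to 0.287. The RefSeq promoter window of Ly6a2 and the Ly6c2 window shown were identical in 95.1% of 305 columns. With the other Ly6c2 window it was 75.5% of 339 columns. Of the 31-base words of the Ly6a2 transcript, 5.10% occurred in Ly6c2 transcripts. Ly6e shared no such word with the other genes.

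The Ly6 genes moved beside wider shifts in cell type markers. Among the neutrophil markers 6 of 16 tested fell and none rose, with a median log2 fold change of -3.26. Retnlg, a secreted resistin-like protein of neutrophils, averaged 19.6 ± 8.0 CPM in CD54-positive and 192 ± 47.3 CPM in CD54-negative libraries (SD, n = 4 each; edgeR adjusted p = 0.0119). Ngp and Cd177, a granule protein and a surface protein of neutrophils, fell by 3.99 and 3.43 on the log2 scale (edgeR adjusted p = 0.0239 and 0.0318).

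Monocyte markers moved unevenly. Of 14 tested, 3 rose and none fell: Ccr2, the chemokine receptor that brings monocytes into tissue, averaged 386 ± 76.7 CPM in CD54-positive and 27.4 ± 13 CPM in CD54-negative libraries (SD, n = 4 each; log2 fold change 3.81 ± 0.49 SE; by edgeR, adjusted p = 0.00992), and Cx3cr1 and Ms4a4c rose by 3.06 and 4.29. The median log2 fold change of the list was -0.91. Its summed level was 5695 to 6981 CPM in CD54-positive and 15310 to 18230 CPM in CD54-negative libraries, a gap carried by 1 gene, Fn1, named after its values were seen. Fn1, which encodes the matrix protein fibronectin, had 1855, 2282, 3527 and 1736 CPM in CD54-positive libraries 1, 2, 3 and 5, against 13290, 13880, 11680 and 6348 CPM in CD54-negative libraries 1, 2, 3 and 5. Without Fn1 the groups overlapped, with sums of 4140, 3544, 3454 and 3960 CPM in CD54-positive libraries 1, 2, 3 and 5, against 2857, 4007, 3633 and 11880 CPM in CD54-negative libraries 1, 2, 3 and 5.

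Of 14 macrophage markers 11 rose and none fell (median log2 fold change 3.41), among them Mrc1, C1qb and C1qc. Of 8 dendritic cell markers tested 3 rose, the MHC class II genes H2-Eb1, H2-Aa and H2-Ab1, and of 11 T and NK cell markers 1 rose, Cd4. None of 7 B and plasma cell markers tested and none of 4 epithelial and mammary tumour markers tested passed the test, and of 9 fibroblast markers 1 fell, the collagen gene Col6a1. The part of these cells in the Ly6 values was not tested.

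**Figure D4:**
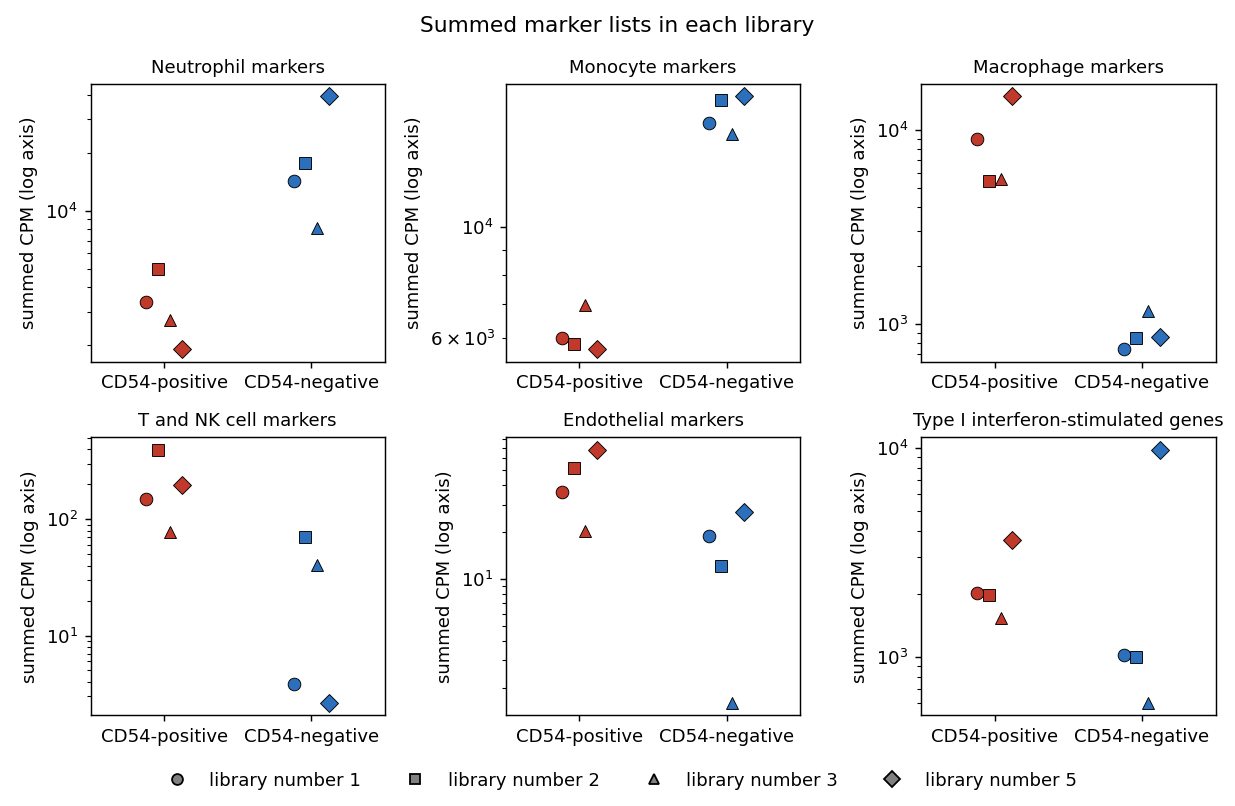
Summed CPM of 6 gene lists, on log axes, in CD54-positive (red, left) and CD54-negative (blue, right) libraries, with marker shape for library number. The neutrophil sum is lower and the macrophage, T and NK cell sums higher in every CD54-positive library than in any CD54-negative one; the monocyte sum is lower too, but overlaps between groups once Fn1 is left out, and the interferon-stimulated sum is highest in the library labelled CD54-negative 5.

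Interferon-stimulated genes were examined beside Ly6a and Ly6e. None of 26 type I interferon-stimulated genes passed the test, 12 being positive and 14 negative, and the median log2 fold change was -0.17. Their sum was 2025, 1967, 1539 and 3641 CPM in CD54-positive libraries 1, 2, 3 and 5, against 1021, 997, 604 and 9779 CPM in CD54-negative libraries 1, 2, 3 and 5. The library labelled CD54-negative 5 was the highest CD54-negative library for this sum and for Ly6a, Ly6e and Ly6i. CD54-positive library 5 was the highest of its group for this sum, Ly6e and Ly6i, but not for Ly6a. Ly6a had 197 CPM there, against 232 CPM in CD54-positive library 1. Of 20 interferon-gamma-responsive genes 3 rose, Irf8, Ciita and Gbp6, a transcription factor of myeloid cells, the class II transactivator and a guanylate-binding protein. Of all genes tested 1.22% rose. On this list 13 genes were positive and 7 negative, and the median log2 fold change was 0.48. The list summed to 1203 to 2193 CPM in CD54-positive libraries, against 602, 674, 289 and 3249 CPM in CD54-negative libraries 1, 2, 3 and 5. The part of interferon in the Ly6 values was not tested.

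The genes most like each Ly6 gene over the 8 libraries were taken by the root mean square difference of their centred log2(CPM + 1) values, among 7530 to 7531 genes. Those nearest to Ly6g were Mapk13, Serpinb1a and Retnlg, at 0.383, 0.549 and 0.636, against a median of 2.15 over all these genes. Nearest to Ly6c2 were Mgst1, Nhsl2 and Adpgk, at 0.583, 0.617 and 0.671 (median 1.68). Nearest to Ly6a were Il2rg, Bcl2a1b and Tent5c, at 0.481, 0.544 and 0.592 (median 2.12), and nearest to Ly6e were Pcna, Eif6 and Dnase1l1, at 0.183, 0.210 and 0.224 (median 1.29). Ly6i had Bin2, Ccl3 and Nmi at 0.316, 0.334 and 0.379 (median 1.5), and Ly6c1 had only looser neighbours, Satb1, Lipe and Ccnh at 0.810, 0.848 and 0.934 (median 1.72). By the same measure Ly6g and Ly6c2 were 1.14 apart and Ly6g and Ly6a 3.83.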

How the data were processed

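The authors deposited 1 table of estimated counts for each gene, fractions included; per the submitters' processing notes they used Trim Galore 0.6.6 and Salmon 1.9.0 with GRCm39, and no source used here gives the annotation or the gene summing. Libraries came from a QIAseq FX Single Cell RNA kit, per the labels' protocols, with no molecular identifiers mentioned, so counts need not equal molecules and floors cover counting error only. Of 25669 rows, 88 repeated identifiers with identical values were kept once. No 2 libraries of a group agreed within counting noise (chi-square per degree of freedom 173 to 921).

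Counts were rounded, filtered with filterByExpr, scaled by TMM and tested with edgeR 4.0.16 (quasi-likelihood, robust, group only; limma 3.58.1 and DESeq2 1.42.0 as alternatives; R 4.3.3), with Benjamini-Hochberg adjustment over all 13575 genes tested and a threshold of 0.05. The SE is the log2 fold change divided by the root of F. CPM use TMM-adjusted library sizes, and TPM use the deposited gene lengths. The steps were tested on simulated counts. The named genes were the members, Icam1, the 3 genes nearest to each member by profile (average log2 CPM of 4 or more, no predicted genes or pseudogenes), tested relatives on the family list and up to 3 called genes per other list. Members and lists were chosen with earlier results of these data known.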

Additional observations from a re-analysis of the deposited data

Results flagged for a closer look

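Among 92 combinations of a named gene and a group, 13 had 1 library far from the other 3 by Dixon's gap test. For independent, normally distributed values chance flags about 1 in 20 groups. The 13 cannot be set against that rate, because many of these genes were chosen for a profile like that of a member. Lipe, Bcl2a1b, Tent5c and Dnase1l1 below are such neighbours. Of the 13, CD54-negative library 5 gave 5 and CD54-positive library 5 gave 4. CD54-negative library 1 was low for Ly6g, with 25.9 CPM against 38.8 to 41.1 in the others, and for Ly6c2, with 58.4 CPM against 134 to 143. CD54-positive library 5 was high for Ly6e, with 1476 CPM against 405 to 525 in the others, for Plaur (110 CPM against 14.0 to 28.6), for Dnase1l1 (174 CPM against 68.2 to 82.8) and for H2-Ab1 (622 CPM against 202 to 235). The library labelled CD54-negative 5 was high for Icam1, with 138 CPM against 4.31 to 18.7 in the others, for Plaur (598 CPM against 58.0 to 72.2), for Lipe (52.2 CPM against 8.30 to 13.3), for Bcl2a1b (148 CPM against 26.7 to 45.8) and for Tent5c (43.4 CPM against 6.66 to 11.3). CD54-negative library 2 was high for Ly6d, with 11.4 CPM against 0 to 0.439 in the others, and for Cd4, with 3.62 CPM against 0.0877 to 0.266.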

How the results depend on the processing

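Ly6g kept its sign but was not called with RLE scaling (-4.30), with library sizes only (-3.94) or without both libraries numbered 5 (-4.08), and ran from -4.86 to -3.83 with 1 library left out. Ly6c2 was not called with RLE scaling (-2.66), without both libraries numbered 5 (-2.42) or summed with Ly6c1 (-2.22), and ran from -3.00 to -2.31 with 1 library left out. The summed value of -2.22 is the opposite of the sign of Ly6c1 alone, which was 0.28 to 2.91 with 1 library left out and 0.88 with the replicate block. Ly6a was called with library sizes only (3.37), DESeq2 (2.89), limma-voom (3.74), no filter (3.06) and without both libraries numbered 5 (3.96), and ran from 2.66 to 4.13 with 1 library left out. Ly6i turned positive with limma-voom (2.91), without both libraries numbered 5 (1.21) and without the library labelled CD54-negative 5 (1.54), and ran from -0.95 to 1.54 with 1 library left out. Icam1 was not called over all 8 libraries (0.67; edgeR adjusted p = 0.754). With 1 library left out Icam1 ran from 0.29 to 2.64. It was called without the library labelled CD54-negative 5 (edgeR adjusted p = 0.0483), but not without both libraries numbered 5 (0.0958). Of the 6 genes, 0 were called with RLE scaling, 1 without both libraries numbered 5, and 0 to 3 with 1 library left out: 3 without the library labelled CD54-negative 5 and 0 without any other. All genes called, 203, became 1233 with DESeq2, 856 with limma-voom, 365 with no filter, 409 without both libraries numbered 5, and 4 (without CD54-negative library 1) to 578 with 1 library left out. Upper-quartile scaling and library sizes only moved the median of all genes by 0.13 and 0.24 on the log2 scale; no Ly6 gene changed sign with them. Fits without a library have fewer degrees of freedom, and the number of genes called rose in some of them and dropped in others. The cause of these changes was not tested.

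The labels do not say whether same-numbered libraries share a mouse or a tumour, and they were analysed as unpaired: the correlations of their deviations from the group means across genes were -0.177, 0.111, 0.167 and 0.371 for numbers 1, 2, 3 and 5, and not every library correlated best with its own number. Of 4 pairs, 3 were above 0.1. With the replicate block 541 genes were called (280 higher, 261 lower), Ly6g and Ly6c2 stayed called, Ly6a was called (3.40; edgeR adjusted p = 0.0232) and Ly6i turned positive (2.21).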

Other observations

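Family genes below the filter on low counts were seen in single libraries. Gpihbp1, which carries lipoprotein lipase across capillary endothelium, had 172 estimated counts in CD54-positive library 2, the library with the most Ly6c1, and at most 2 in any other. It had 0 counts in CD54-positive library 5, where the endothelial marker sum was highest, at 67.8 CPM against 51.6 CPM in CD54-positive library 2. Ly6m had 55.2 counts in CD54-positive library 2 and at most 4.04 elsewhere. Lypd6, a modulator of Wnt signalling, had 0, 0, 3 and 0 counts in CD54-positive libraries 1, 2, 3 and 5, against 113, 7, 165 and 0 in CD54-negative libraries 1, 2, 3 and 5. Ly6g6d had 31, 9, 8 and 10.4 counts in CD54-positive libraries 1, 2, 3 and 5, against 2, 3, 0 and 0 in CD54-negative libraries 1, 2, 3 and 5. These genes were named after their values were seen and were not tested.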
